A study of Homo sapiens with 10 samples.

Results

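Polycomb repressive complex subunits were examined in BEAS2B cells, a human bronchial epithelial cell line, after transfection with miRNA mimics, a miRNA inhibitor or their mixture. The members were the rows whose gene symbol is BMI1, SUZ12, EZH2, EZH1, EED, JARID2, RING1, RNF2, CBX2 or PCGF2, which is 10 of the 52402 gene symbols in the count files. Counts of a symbol listed on more than 1 row were summed, and read-through symbols such as COMMD3-BMI1 were left out. The study asked how the miRNAs of a small cell lung cancer panel act on mRNA in a normal lung cell line, and 5 groups of 2 libraries were used here. Cells received a scrambled miRNA (miRcontrol), the miR-3124-5p mimic (miR3124_mimic), the miR-200b-3p mimic (miR200b_mimic) or the miR-92b inhibitor (miR92b_inhibitor) at 50 nM. The remaining group received all 3 agents together (the 3-miRNA mixed group), and the amount of each agent in the mixture is not given in the sources used here. Lipofectamine 2000 was used in every group, miRcontrol included, and RNA was taken after 48 h. All libraries came from 1 cell line. Nothing in the sources says whether the 2 libraries of a group came from separate transfections, so the p-values measure the spread between these libraries, which may be technical. Total counts were between 13587666 and 18503890 per library.

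Polycomb proteins keep developmental genes silent by marking histones. Polycomb repressive complex 2 (PRC2) methylates histone H3 at lysine K27 through EZH2 or EZH1, its catalytic subunits, which need the core subunits SUZ12 and EED, and JARID2 is an accessory subunit that helps the complex reach and bind chromatin. Polycomb repressive complex 1 (PRC1) attaches ubiquitin to histone H2A through RING1 or RNF2 (RING1B), paired with a PCGF protein such as BMI1 (PCGF4) or PCGF2 (MEL18), while CBX2 reads the PRC2 mark. EZH2 is known as the form of dividing cells and EZH1 as the form of resting cells, and BMI1 is known for repressing the INK4 locus. BMI1 and SUZ12 are known targets of miR-200b, which is also known to repress the transcription factors ZEB1 and ZEB2.

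The mature miRNAs are shown because their seeds (bases 2 to 8, in capitals) determine which 3′UTR words can be sought in the members. The sequences are from RefSeq (GRCh38.p14), and both arms of miR-92b are given because the labels do not state which arm the inhibitor was made against. The study's panel names miR-92b-5p, and its methods name a miR-92b inhibitor without an arm. All 4 have different seeds.
hsa-miR-3124-5p: uUCGCGGGcgaaggcaaaguc
hsa-miR-200b-3p: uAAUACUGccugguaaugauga
hsa-miR-92b-3p: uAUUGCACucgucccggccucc
hsa-miR-92b-5p: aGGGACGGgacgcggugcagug

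In each member's 3′UTR, taken from its longest coding transcript (GENCODE v29, GRCh38, sense strand), the words that pair with bases 2 to 8 are CAGTATT for miR-200b-3p, CCCGCGA for miR-3124-5p, GTGCAAT for miR-92b-3p and CCGTCCC for miR-92b-5p. CAGTATT was found in 3 members, once each in BMI1 and SUZ12 and at 2 places in RNF2. GTGCAAT was found once in JARID2 and once in RNF2. Neither CCCGCGA nor CCGTCCC was found in any member's 3′UTR. Among the 3′UTRs of 12239 tested genes, 19.5% held CAGTATT, 13.1% GTGCAAT, 4.18% CCGTCCC and 0.62% CCCGCGA, and no 2 of these words are the same. The stretches around the words are printed on the strand of the gene, with the word in capitals, at chr10:22330250-22330271 (BMI1), chr17:32000425-32000446 (SUZ12), chr1:185100485-185100506 and chr1:185101581-185101602 (RNF2), chr1:185102558-185102579 (RNF2, the word of miR-92b-3p) and chr6:15521126-15521147 (JARID2), all on the plus strand. A match describes letters and does not show that the miRNA binds there.
BMI1 word of miR-200b-3p: ataacaggaaaCAGTATTgtat
SUZ12 word of miR-200b-3p: gatttgtcatcCAGTATTaagt
RNF2 first word of miR-200b-3p: ctgcaattattCAGTATTtttt
RNF2 second word of miR-200b-3p: tttatatatcaCAGTATTtaaa
RNF2 word of miR-92b-3p: agaaactctgtGTGCAATtaaa
JARID2 word of miR-92b-3p: ttgtcatcgacGTGCAATcttt

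In miRcontrol cells the members differed in level by more than a factor of 10. Divided by the length of all annotated exons, BMI1 stood at 21.6 ± 1.69 CPM per kb (SD, n = 2), SUZ12 at 19.1 ± 0.962 and EZH2 at 15.5 ± 0.222. RNF2 (7.57 ± 0.151), JARID2 (6.49 ± 0.329), EED (5.17 ± 0.347) and EZH1 (2.83 ± 0.279) followed, and CBX2 (1.36 ± 0.0111) and PCGF2 (0.547 ± 0.149) were lowest. CPM here are counts scaled to the library's total after correction with edgeR's RLE factors. The order between BMI1 and SUZ12, and between EED and its neighbours, rests on the length used. Divided by the longest transcript, SUZ12 (27.8) passed BMI1 (26.99), and EED, at 13.1 CPM per kb, passed RNF2 (8.55) and JARID2 (6.78).

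RING1 had 0 counts in all 10 libraries, and this cannot be read as absence of its mRNA. The symbol stands on 6 rows, and so do neighbours that every cell uses: RPS18, a ribosomal protein gene on 6 rows, had at most 1 count in any library. All 11 protein-coding genes within 100000 bases of RING1 were listed on more than 1 row, and 4 of them had 0 counts throughout. PCGF2 lies in a stretch of the same kind, with 6 of its 7 neighbours on more than 1 row. Among these, PSMB3, a proteasome subunit gene, had 0 counts, whereas RPL23, the neighbour on a single row, had between 4660 and 8320. The levels of RING1 (chr6:33208495-33212722) and PCGF2 (chr17:38733897-38749817) were therefore not measured reliably. The other 8 members stand on 1 row each, with no neighbour on several rows, and 9 members passed the filter on low counts.

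Each transfected group was compared with miRcontrol, in a fit of all libraries with edgeR's quasi-likelihood test and p-values adjusted over the 14884 genes tested. An adjusted p under 0.05 was the call. These transfections changed a large share of all genes, so the background is given beside the counts of members. With miR3124_mimic 6 of 9 tested members were called, 2 higher and 4 lower, where 51.0% of all tested genes were called (25.7% higher, 25.3% lower). With miR200b_mimic 2 were called, 1 higher and 1 lower, at a background of 40.6% (21.4% higher, 19.1% lower). The count for miR92b_inhibitor was 3, with 2 higher and 1 lower, at a background of 35.7% (17.5% higher, 18.2% lower). In the 3-miRNA mixed group it was 4, with 1 higher and 3 lower, at a background of 42.7% (21.5% higher, 21.1% lower). With 9 members these counts are descriptions and were not tested against the background. The 4 comparisons share the miRcontrol libraries. The median log2 fold change of the members was -0.22, -0.10, 0.00 and -0.10 in that order, and that of all tested genes lay between -0.01 and 0.00. The study's own criterion, an unadjusted p under 0.05 together with a 2-fold change or more, was met by 8.81%, 5.7%, 2.63% and 5.42% of all tested genes in the same order, and among the members by JARID2 with miR200b_mimic alone.

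**Figure D1:**
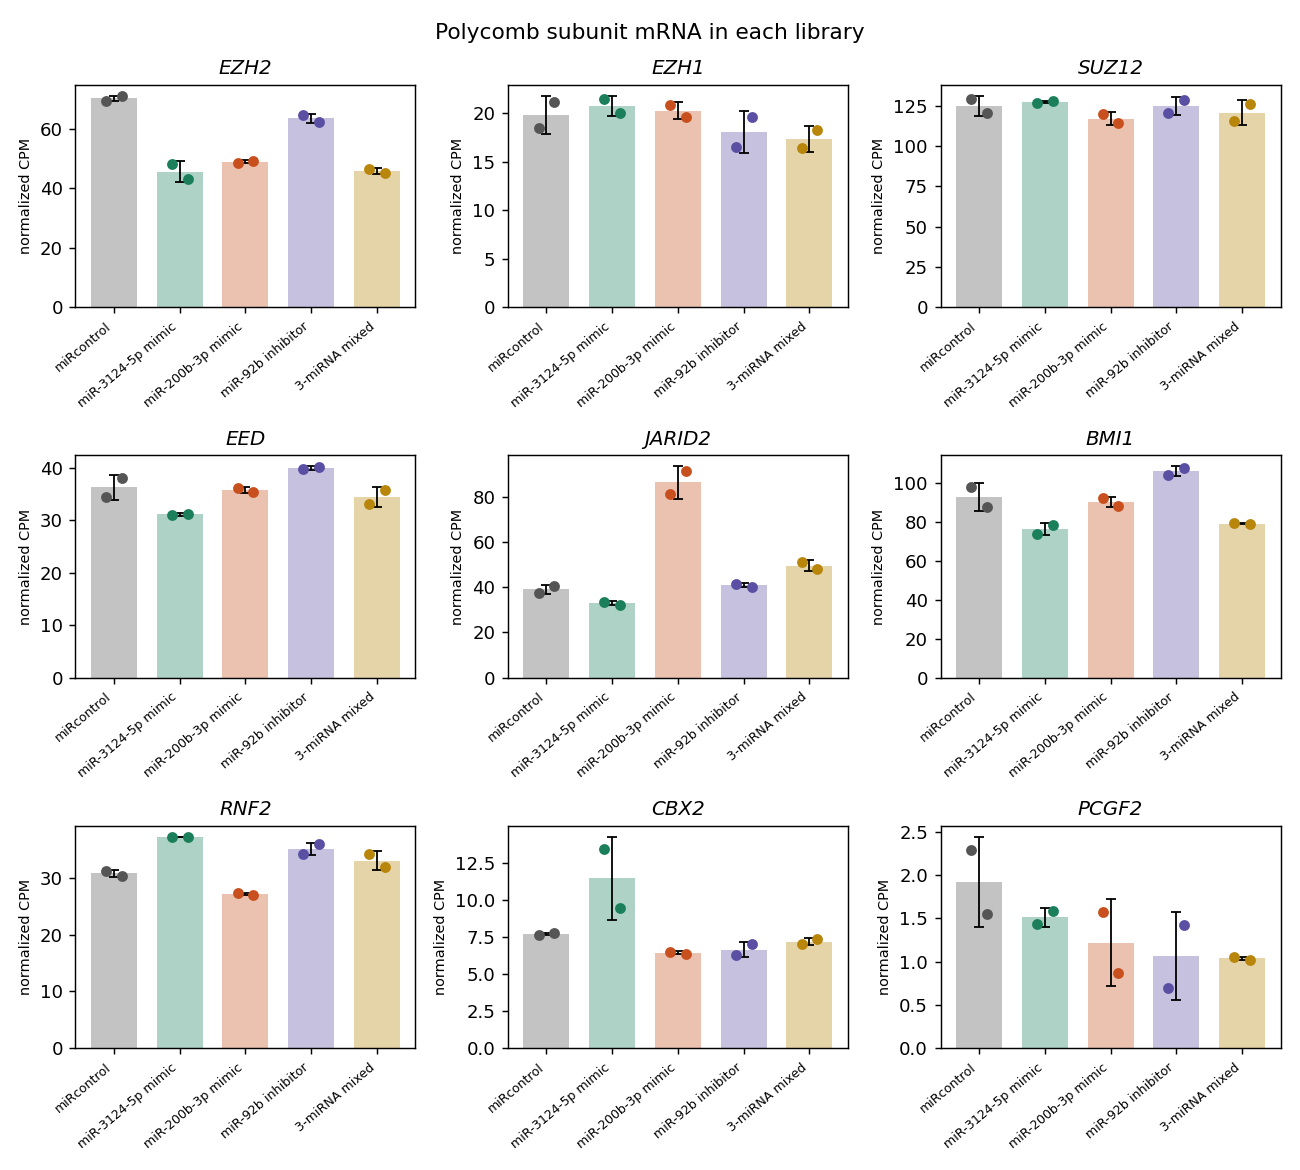
Normalized CPM (y axis, from 0) of the 9 members with counts in the 5 groups (x axis). Points are libraries, bars are means and error bars are SDs (n = 2). EZH2 lies near 46 to 49 CPM in 3 of the groups against 70.2 in miRcontrol, and JARID2 reaches 86.3 with miR200b_mimic, while the SUZ12 groups overlap with miRcontrol or lie just below it.

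EZH2 (chr7:148807383-148884321, minus strand, GRCh38, as for the genes that follow) was lower in every transfected group and had the largest decrease among the members on single rows. The miRcontrol libraries had 69.5 and 70.9 CPM, those of miR3124_mimic 48.01 and 43.06, those of miR200b_mimic 48.5 and 49.3, those of miR92b_inhibitor 64.6 and 62.5, and those of the 3-miRNA mixed group 46.6 and 45.1. No transfected library reached either miRcontrol library. EZH2 fell by 35.3% with miR3124_mimic (log2 fold change -0.63 ± 0.06 SE, adjusted p = 1.82e-12), by 30.3% with miR200b_mimic (-0.52 ± 0.06, adjusted p = 6.35e-10) and by 34.7% in the 3-miRNA mixed group (-0.61 ± 0.06, adjusted p = 3.24e-12). The decrease with miR92b_inhibitor was smaller (-0.14 ± 0.06, adjusted p = 0.0413) and lost its call under 8 of 14 alternatives, among them the DESeq2 Wald test (adjusted p = 0.147) and leaving out any 1 of its 4 libraries (adjusted p between 0.0726 and 0.242). The level with miR92b_inhibitor was higher than with miR200b_mimic by 0.38 ± 0.06 on the log2 scale (adjusted p = 9.09e-07). Differences among the other 3 transfected groups did not pass the test (adjusted p between 0.147 and 0.871). In bulk RNA, fewer cells expressing EZH2 and less EZH2 mRNA per cell cannot be told apart.

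EZH1 (chr17:42700275-42745049, minus strand), the alternative catalytic subunit, did not pass the test against miRcontrol in any group. It had 18.4 and 21.2 CPM in miRcontrol, 21.5 and 20.03 with miR3124_mimic, 20.9 and 19.6 with miR200b_mimic, 16.5 and 19.6 with miR92b_inhibitor, and 16.4 and 18.3 in the mixed group. Both mimic groups and miR92b_inhibitor overlapped miRcontrol, and the mixed group lay just below it (-0.19 ± 0.10, adjusted p = 0.126). Both libraries of the mixed group also lay below those of miR3124_mimic (-0.26 ± 0.10, adjusted p = 0.0307) and of miR200b_mimic (-0.22 ± 0.10, adjusted p = 0.0862). The miR92b_inhibitor libraries lay below those of miR3124_mimic (adjusted p = 0.0903) and, narrowly, of miR200b_mimic (adjusted p = 0.200). Per kb of exon, EZH2 exceeded EZH1 by 5.83 and 5.17 times in the miRcontrol libraries and by 6.04 and 4.93 times with miR92b_inhibitor. The ratio was 3.45 and 3.32 with miR3124_mimic, 3.60 and 3.88 with miR200b_mimic, and 4.40 and 3.81 in the 3-miRNA mixed group, and these 6 libraries were all below the 4 others. The ratio was not tested.

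SUZ12 (chr17:31937018-32001045, plus strand), the scaffold subunit of PRC2 and a gene with the miR-200b word, was the steadiest of the members. Its level was 129 and 120 CPM in miRcontrol, 127 and 128 with miR3124_mimic, 120 and 114 with miR200b_mimic, 121 and 129 with miR92b_inhibitor, and 115 and 126 in the mixed group. Only the miR200b_mimic libraries both lay below the lower miRcontrol library, and both by less than the gap within the miRcontrol pair. The difference was -0.10 ± 0.05 (adjusted p = 0.113), and no alternative called it, with values from -0.15 to -0.04. No neighbouring pair in the order of the 5 groups differed, from miR3124_mimic (127) through miRcontrol (125), miR92b_inhibitor (125) and the mixed group (121) to miR200b_mimic (117). Between the ends of that order the difference passed the test (miR200b_mimic against miR3124_mimic, -0.12 ± 0.05, adjusted p = 0.0304). Fewer members were called between these groups when any 1 library was left out. A pseudogene, SUZ12P1, held between 114 and 162 counts per library, and adding them to SUZ12 left its difference with miR200b_mimic uncalled (-0.08, adjusted p = 0.183).

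EED (chr11:86244544-86278813, plus strand), which binds the methyl mark and stimulates the complex, was lower with miR3124_mimic. It stood at 34.6 and 38.0 CPM in miRcontrol and at 31.0 and 31.3 with miR3124_mimic, which do not overlap (-0.22 ± 0.07, adjusted p = 0.0115). Without the second miRcontrol library this was -0.15 with an adjusted p of 0.174, and the DESeq2 Wald test gave an adjusted p of 0.0607. In miR200b_mimic (36.2 and 35.4), miR92b_inhibitor (39.8 and 40.3) and the 3-miRNA mixed group (33.1 and 35.8) EED was not called (adjusted p = 0.862, 0.111 and 0.437).

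JARID2 (chr6:15246296-15522040, plus strand) had the largest change of any member. It rose 2.22-fold with miR200b_mimic, from 37.6 and 40.4 CPM in miRcontrol to 81.2 and 91.4 (log2 fold change 1.15 ± 0.06, adjusted p = 2.86e-20). In the 3-miRNA mixed group it had 51.1 and 47.9 CPM, 1.27-fold above miRcontrol (0.34 ± 0.07, adjusted p = 3.14e-05) and below miR200b_mimic (-0.81 ± 0.06, adjusted p = 2.65e-15). Every library of these 2 groups was above both miRcontrol libraries. With miR3124_mimic JARID2 was lower, at 33.5 and 32.2 CPM (-0.25 ± 0.07, adjusted p = 0.00374), a call that was lost without the second miRcontrol library (adjusted p = 0.0652). The JARID2 3′UTR holds a word of miR-92b-3p, and the arm that the inhibitor was made against is not stated. With miR92b_inhibitor JARID2 had 41.4 and 40.3 CPM and did not pass the test (0.07 ± 0.07, adjusted p = 0.492). The order of levels was thus miR200b_mimic, the mixed group, miR92b_inhibitor, miRcontrol and miR3124_mimic, and within it only the step from miR92b_inhibitor to miRcontrol did not pass.

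BMI1 (chr10:22321211-22331484, plus strand), a PCGF subunit of PRC1, was lower with miR3124_mimic and in the mixed group and higher with miR92b_inhibitor. The miRcontrol libraries had 97.6 and 87.4 CPM, those of miR3124_mimic 73.8 and 78.2, and those of the 3-miRNA mixed group 79.1 and 78.7. Those of miR92b_inhibitor had 104.0 and 107.7, above both miRcontrol libraries, and those of miR200b_mimic had 91.97 and 88.1, between them. The log2 fold change was -0.28 ± 0.05 with miR3124_mimic (adjusted p = 1.67e-05), -0.23 ± 0.05 in the mixed group (adjusted p = 3.03e-04) and 0.19 ± 0.05 with miR92b_inhibitor (adjusted p = 0.00202). The miRcontrol pair itself differed by about 10 CPM. Leaving out its first library ended the call in the mixed group (-0.15, adjusted p = 0.0648), and leaving out its second ended that of miR92b_inhibitor (0.12, adjusted p = 0.161). The call with miR3124_mimic held under all 14 alternatives (-0.36 to -0.20).

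With miR200b_mimic, BMI1 differed from miRcontrol by -0.04 ± 0.05 (adjusted p = 0.565), with alternatives from -0.12 to 0.04 and no call. The level in the 3-miRNA mixed group was lower than with miR200b_mimic (-0.19 ± 0.05, adjusted p = 0.00395), and that with miR92b_inhibitor was higher (0.24 ± 0.05, adjusted p = 1.43e-04). miR3124_mimic and the mixed group did not differ (0.05 ± 0.05, adjusted p = 0.465).

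The read-through symbol COMMD3-BMI1, which shares exons with BMI1, took 72 counts in the first miR3124_mimic library, 103 in the first miR200b_mimic library, 55 and 34 with miR92b_inhibitor and 22 in the first library of the mixed group, and 0 in the other 5. Added to BMI1, these counts moved its log2 fold change to -0.24 with miR3124_mimic, 0.01 with miR200b_mimic, 0.23 with miR92b_inhibitor and -0.22 in the mixed group, and changed no call. How the counting shared reads between BMI1 and the read-through is not given in the sources used here.

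RNF2 (chr1:185045364-185102608, plus strand), the catalytic subunit of PRC1 and the only member with words of both miR-200b-3p and miR-92b-3p, lay on both sides of miRcontrol. It had 31.2 and 30.4 CPM in miRcontrol, 37.3 and 37.2 with miR3124_mimic, 27.4 and 27.04 with miR200b_mimic, 34.3 and 35.9 with miR92b_inhibitor, and 34.2 and 31.9 in the mixed group. All transfected libraries lay outside the narrow miRcontrol pair, those of miR200b_mimic below and the others above. The rise with miR3124_mimic was 0.27 ± 0.07 (adjusted p = 0.00163). With miR92b_inhibitor it was 0.19 ± 0.07 (adjusted p = 0.0387), which lost its call under 6 of 14 alternatives, among them leaving out any 1 of the 4 libraries compared (adjusted p between 0.0569 and 0.217). The value with miR200b_mimic, -0.18 ± 0.08, missed the threshold (adjusted p = 0.0593) and passed it under library totals alone (adjusted p = 0.0462) and with a minimum of 10 counts in every library (adjusted p = 0.0454). RNF2 with miR200b_mimic was lower than with miR3124_mimic (-0.45 ± 0.08, adjusted p = 1.54e-06).

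CBX2 (chr17:79778132-79787983, plus strand), the chromobox reader, was higher with miR3124_mimic, at 13.5 and 9.45 CPM against 7.67 and 7.76 in miRcontrol (0.56 ± 0.15, adjusted p = 0.00124). The 2 miR3124_mimic libraries differed from each other by more than the second of them did from miRcontrol, and without the first the value was 0.29 with an adjusted p of 0.169. In the other groups CBX2 lay between 6.30 and 7.37 CPM and was not called (adjusted p between 0.209 and 0.647). PCGF2 held 12 to 40 counts per library. Its call in the mixed group (1.05 and 1.02 CPM against 2.29 and 1.55, -0.89 ± 0.37, adjusted p = 0.0460) held in 9 of 14 alternatives and was lost, among others, without the first miRcontrol library (adjusted p = 0.377), and it rests on a gene that was poorly measured.

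**Figure D2:**
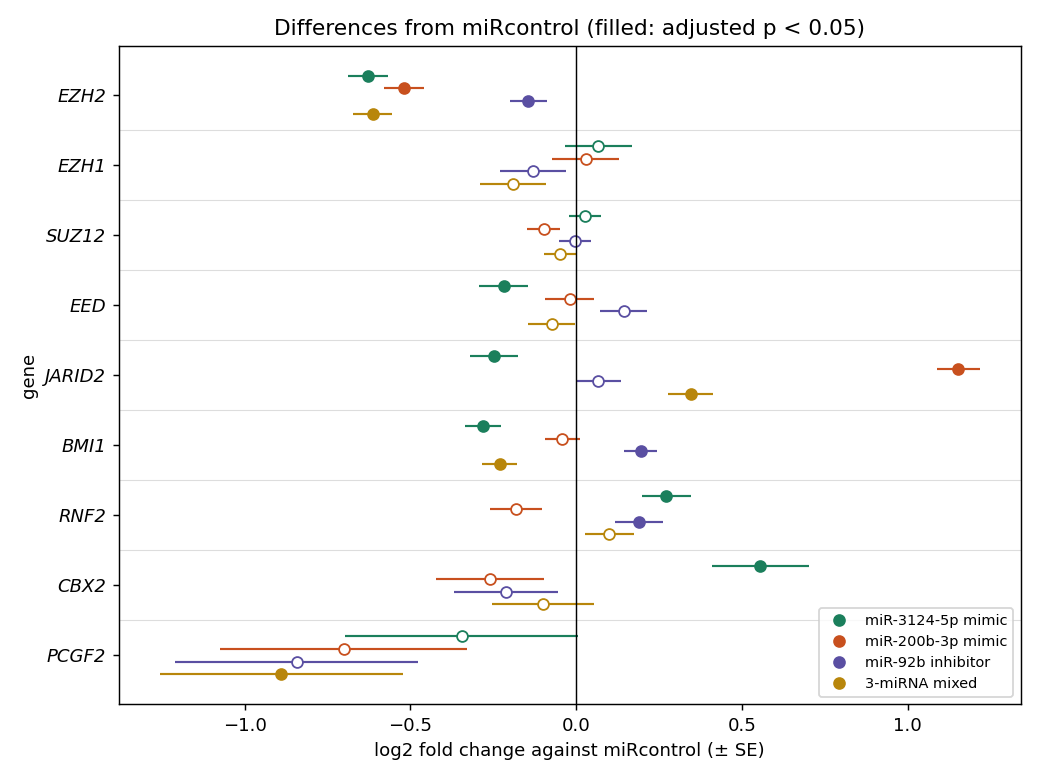
Log2 fold change against miRcontrol (x axis, with SE bars) of the 9 tested members (y axis), 1 colour per transfected group. Filled points have an adjusted p under 0.05. EZH2 is to the left of 0 in all groups, JARID2 stands at 1.15 with miR200b_mimic, and BMI1 and RNF2 have points on both sides of 0.

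Pairs of transfected groups were also compared directly. Of the 9 tested members 6 were called between miR200b_mimic and miR3124_mimic (57.8% of all tested genes), 5 between miR92b_inhibitor and miR3124_mimic (58.8%) and 4 between the mixed group and miR3124_mimic (49.1%). Between miR92b_inhibitor and miR200b_mimic 4 were called (50.5%), between the mixed group and miR200b_mimic 3 (38.6%) and between the mixed group and miR92b_inhibitor 4 (39.6%). CBX2 was lower with miR200b_mimic than with miR3124_mimic (-0.82 ± 0.15, adjusted p = 1.14e-05). For the mixed group against miR200b_mimic the 3 were BMI1 and JARID2, which were lower, and RNF2, which was higher (0.28 ± 0.08, adjusted p = 0.00263). Against miR3124_mimic the mixed group had less CBX2 (-0.65 ± 0.15, adjusted p = 1.88e-04), EZH1 (-0.26 ± 0.10, adjusted p = 0.0307) and RNF2 (-0.17 ± 0.07, adjusted p = 0.0430) and more JARID2 (0.59 ± 0.07, adjusted p = 7.11e-10). Of these, JARID2 kept its call under every alternative. CBX2 lost it without the first miR3124_mimic library (-0.39, adjusted p = 0.0606). EZH1 lost it without that library (adjusted p = 0.184), without the first library of the mixed group (0.256), under DESeq2 (0.124) and with no filter (0.0525). RNF2 lost it without either miR3124_mimic library (0.128 and 0.137), without the second library of the mixed group (0.304), under TMM (0.0705), under DESeq2 (0.156) and with no filter (0.113).

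Over all tested genes with the CAGTATT word, the median log2 fold change with miR200b_mimic was -0.06, against 0.02 for genes without it. The 3 members with the word had -0.04 (BMI1), -0.10 (SUZ12) and -0.18 (RNF2), and none was called, while the 2 members that were called with this mimic, EZH2 and JARID2, have no such word in the 3′UTR searched. With the union of all annotated 3′UTRs, EED also held 1 word, and its log2 fold change was -0.02. ZEB1 and ZEB2, known targets, fell in the same libraries. ZEB1 was at -1.29 ± 0.07 (adjusted p = 3.55e-21) and ZEB2 at -2.27 ± 0.10 (adjusted p = 3.61e-23) with miR200b_mimic, and at -1.12 ± 0.06 and -1.66 ± 0.09 in the mixed group. CDH1, the E-cadherin gene that ZEB proteins repress, had 3 and 2 counts in miRcontrol, 146 and 157 with miR200b_mimic (at least 56.9-fold higher than a floor of 3 counts per library) and 46 and 36 in the mixed group (at least 12.8-fold higher).

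The other Polycomb genes were taken from lists of 44 symbols, of which 43 were in the files and 41 were tested. In all, 15 rose and 9 fell with miR3124_mimic, 8 rose and 13 fell with miR200b_mimic, 5 rose and 11 fell with miR92b_inhibitor, and 10 rose and 14 fell in the mixed group. These are 58.5%, 51.2%, 39.0% and 58.5% of the tested list. Their median log2 fold change was between -0.05 and 0.02. Over all tested genes the shares called were 51.0%, 40.6%, 35.7% and 42.7% with miR3124_mimic, with miR200b_mimic, with miR92b_inhibitor and in the mixed group.

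Partners of canonical PRC1, the chromobox, polyhomeotic and SCM proteins, held the largest rises. With miR3124_mimic 7 of 9 rose and 1 fell, with a median of 0.36 against 0.00 for all genes. Of all tested genes 25.7% rose and 25.3% fell there. The partners called were 88.9%, 44.4%, 33.3% and 55.6% in the order of the groups above, so that the shares with miR200b_mimic and with miR92b_inhibitor lay near those of all genes. SCML2, a PRC1-associated SCM protein, rose from 8.70 and 9.49 CPM to 25.4 and 24.2 (1.44 ± 0.11, adjusted p = 1.00e-15), and PHC1, a polyhomeotic subunit, from 9.44 and 9.97 to 18.7 and 18.7 (0.94 ± 0.11, adjusted p = 1.19e-09). In both genes the miR3124_mimic libraries lay far above every miRcontrol library. SCMH1, another SCM protein, was the 1 that fell (-0.73 ± 0.10, adjusted p = 9.11e-09). SCML2 also rose in the mixed group (0.91 ± 0.11) and with miR92b_inhibitor (0.48 ± 0.12, not called without the second miR92b_inhibitor library, adjusted p = 0.0631), where 3 of 9 and 1 of 9 partners rose and 2 fell in each. With miR200b_mimic 2 rose and 2 fell, led by PHC2 (0.54 ± 0.05, adjusted p = 1.23e-13) and PHC1 (-0.53 ± 0.14, adjusted p = 0.00148). PHC2 also rose with miR3124_mimic (0.362 ± 0.047, adjusted p = 6.83e-09) and in the mixed group (0.375 ± 0.046, adjusted p = 3.28e-09). PHC1 also rose in the mixed group (0.42 ± 0.12, adjusted p = 0.00308). The 4 calls with miR200b_mimic became 2 under the DESeq2 Wald test, with no filter on low counts, without the first miRcontrol library and without the first miR200b_mimic library. The 3 calls with miR92b_inhibitor became 1 under DESeq2 and without the second miRcontrol library, and 0 without the second miR92b_inhibitor library.

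PRC2 partners, the histone-binding RBBP proteins and the accessory subunits, moved in both directions in 3 of the 4 groups. Of 8 tested, 3 rose with miR3124_mimic and none fell, 1 rose and 4 fell with miR200b_mimic, 2 rose and 1 fell with miR92b_inhibitor, and 3 rose and 3 fell in the mixed group. These are 37.5%, 62.5%, 37.5% and 75.0%, against 51.0%, 40.6%, 35.7% and 42.7% of all tested genes. LCOR, whose locus encodes the PALI1 form that joins PRC2, rose with miR3124_mimic (0.60 ± 0.04, adjusted p = 1.62e-16), with miR200b_mimic (0.33 ± 0.04, adjusted p = 3.39e-08) and in the mixed group (0.45 ± 0.04, adjusted p = 3.33e-12). Its relative LCORL fell with miR200b_mimic (-0.45 ± 0.07, adjusted p = 3.09e-07) and in the mixed group (-0.38 ± 0.07, adjusted p = 4.39e-06). MTF2, a Polycomb-like accessory subunit chosen after its values were seen, rose with miR3124_mimic from 52.5 and 51.5 to 75.1 and 69.5 CPM (0.47 ± 0.06, adjusted p = 2.09e-09). It also rose with miR92b_inhibitor (0.24 ± 0.06, adjusted p = 9.44e-04) and in the mixed group (0.27 ± 0.06, adjusted p = 1.53e-04). With miR200b_mimic MTF2 was not called (-0.09 ± 0.06, adjusted p = 0.244). PHF1 and EPOP stand on 2 rows each, and EPOP, a neighbour of PCGF2, had 0 counts throughout.

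Of 17 variant PRC1 partners 3, 3, 0 and 3 rose and 4, 4, 5 and 7 fell in the order of the groups above. The shares called, 41.2%, 41.2%, 29.4% and 58.8%, were below or near those of all genes except in the mixed group. The 10 calls in the mixed group became 6 under DESeq2 and 4 without the second miRcontrol library. RYBP, one of these partners, stands on 2 rows with 58 to 112 counts per library, so its level may not be measured reliably. FBRSL1, a relative of the AUTS2 subunit, fell with miR3124_mimic from 16.1 and 18.8 to 7.78 and 7.58 CPM (-1.18 ± 0.13, adjusted p = 3.99e-11), with miR92b_inhibitor (-0.53 ± 0.11, adjusted p = 2.34e-04) and in the mixed group (-0.91 ± 0.12, adjusted p = 1.21e-08). BCORL1, a corepressor of these complexes, fell with miR92b_inhibitor (-0.56 ± 0.08, adjusted p = 2.18e-07). Among 7 tested genes that erase Polycomb marks or take part in erasing them, 2, 2, 2 and 1 rose and 4, 3, 3 and 2 fell. These are 85.7%, 71.4%, 71.4% and 42.9%, against 51.0%, 40.6%, 35.7% and 42.7% of all tested genes. In the mixed group the share was thus near that of all genes. KDM6A, a demethylase of the PRC2 mark, was higher in all 4 groups (0.30, 0.33, 0.32 and 0.43, adjusted p at most 8.40e-04). ASXL1, of the same list, was lower in all 4 groups (-0.226, -0.221, -0.407 and -0.39, adjusted p at most 1.204e-05). KDM6B, a relative of KDM6A, rose with miR200b_mimic (0.46 ± 0.10, adjusted p = 9.37e-05) and fell with miR3124_mimic (-0.29 ± 0.10, adjusted p = 0.0161). Of the 7 genes of this list, 3 were called with miR92b_inhibitor in place of 5 without the first miRcontrol library or without the second miR92b_inhibitor library.

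**Figure D3:**
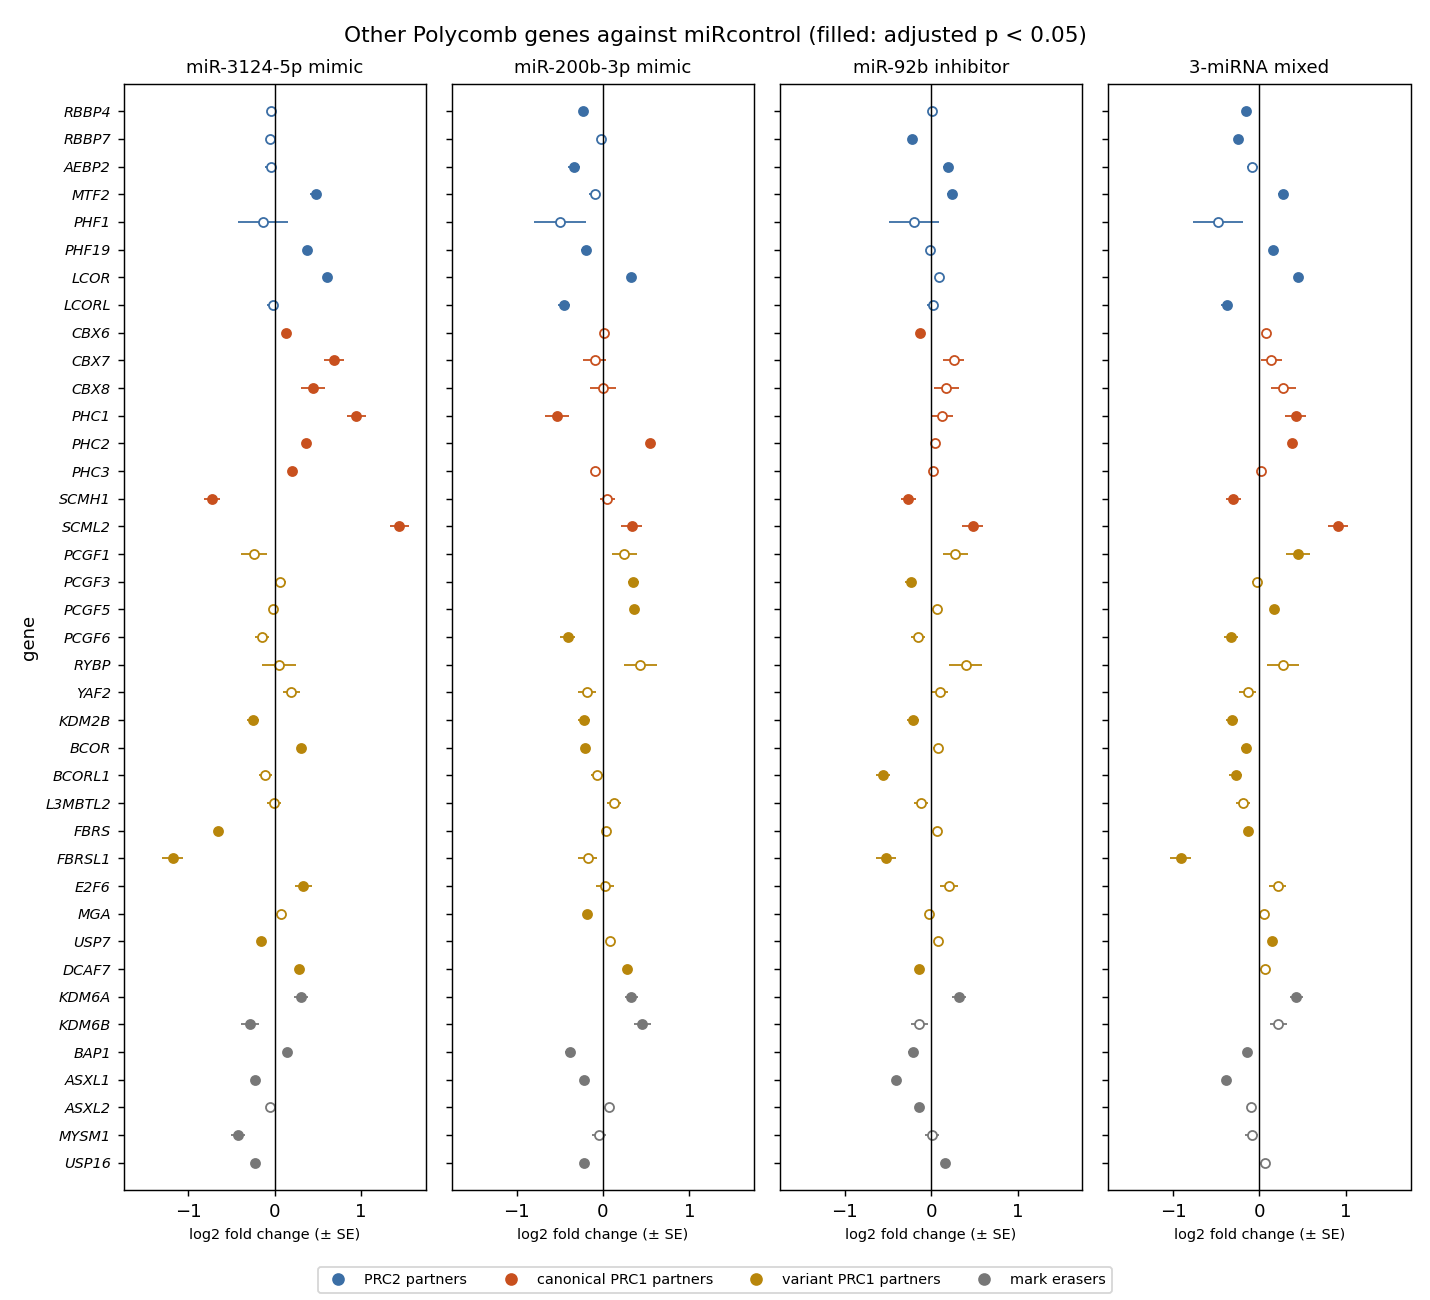
Log2 fold change against miRcontrol (x axes, with SE bars) of other tested Polycomb genes with a mean of at least 1 CPM (y axis), 1 panel per transfected group, coloured by list, filled where the adjusted p is under 0.05. SCML2 (1.44) and FBRSL1 (-1.18) are the outermost points with miR3124_mimic, and the canonical PRC1 partners lie mostly to the right of 0 in that panel.

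The HOX genes and the INK4 genes CDKN2A and CDKN2B, textbook loci under Polycomb control, were described from a list of 41, of which 23 were tested. With miR3124_mimic 2 rose and 6 fell, with miR200b_mimic 2 rose and 9 fell, with miR92b_inhibitor 5 rose and 2 fell, and in the mixed group 2 rose and 9 fell. Of the 23 tested genes, 34.8%, 47.8%, 30.4% and 47.8% were called. The same shares over all tested genes were 51.0%, 40.6%, 35.7% and 42.7%, and 19.1% and 21.1% of all tested genes fell with miR200b_mimic and in the mixed group. The medians were -0.17, -0.30, 0.02 and -0.43. CDKN2B (p15) fell with miR92b_inhibitor from 42.8 and 44.8 to 32.1 and 28.3 CPM (-0.54 ± 0.07, adjusted p = 7.25e-08), with miR3124_mimic (-0.57 ± 0.07, adjusted p = 7.98e-09) and in the mixed group (-0.65 ± 0.07, adjusted p = 3.77e-10), and rose with miR200b_mimic (0.34 ± 0.07, adjusted p = 6.58e-05). CDKN2A, by contrast, fell with miR200b_mimic (-0.19 ± 0.04, adjusted p = 2.57e-04) and was not called with miR92b_inhibitor (0.01 ± 0.04, adjusted p = 0.887). It also fell with miR3124_mimic (-0.228 ± 0.042, adjusted p = 1.10e-05) and in the mixed group (-0.205 ± 0.042, adjusted p = 6.77e-05). HOXB6 fell with miR3124_mimic (-1.11 ± 0.12, adjusted p = 1.12e-10), with miR200b_mimic (-0.49 ± 0.12) and in the mixed group (-0.44 ± 0.11), and rose with miR92b_inhibitor (0.39 ± 0.10, adjusted p = 0.00164). HOXB3 rose with miR3124_mimic (0.30 ± 0.07, adjusted p = 4.47e-04) and fell with miR200b_mimic (-0.57 ± 0.08, adjusted p = 7.22e-08) and with miR92b_inhibitor (-0.31 ± 0.08, adjusted p = 0.00106). HOXB9 rose in the mixed group (0.23 ± 0.06, adjusted p = 0.00161) and with miR92b_inhibitor (0.24 ± 0.06, adjusted p = 0.00128) and fell with miR200b_mimic (-0.38 ± 0.07, adjusted p = 5.46e-06). Its call in the mixed group was lost without the second miRcontrol library (0.14, adjusted p = 0.123), and that of HOXB6 with miR92b_inhibitor without the first (0.31, adjusted p = 0.0563).

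Other HOX genes named by the rule had low counts. HOXC4 fell with miR3124_mimic (-1.12 ± 0.38), with miR200b_mimic (-0.95 ± 0.38) and in the mixed group (-1.70 ± 0.40, adjusted p = 5.33e-04, from 26 and 47 counts in miRcontrol to 12 and 12). HOXA5 fell with miR200b_mimic (-1.47 ± 0.43, adjusted p = 0.00508), from 27 and 36 counts to 15 and 5. HOXA3 rose in the mixed group (0.44 ± 0.17), and HOXB5 rose with miR92b_inhibitor (0.62 ± 0.23) and fell in the mixed group (-0.95 ± 0.27). All these calls were lost without 1 or more single libraries. Without the second miRcontrol library HOXC4 had adjusted p-values of 0.339, 0.555 and 0.0677 in the order given and HOXA5 of 0.0749. Without the second miR200b_mimic library the HOXA5 value was -0.71 (adjusted p = 0.280). Without the second library of the mixed group HOXA3 had 0.290 and HOXB5 0.217, and HOXB5 with miR92b_inhibitor lost its call without any 1 of the 4 libraries (0.0765 to 0.142). Genes of the HOX clusters overlap each other and antisense transcripts, and whether the counting used strand is not given in the sources used here.

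Proliferation genes were measured beside EZH2, since its mRNA is known to follow the cell cycle. Of 8 such genes, 7 fell and MCM2 rose with miR3124_mimic, all 8 fell with miR200b_mimic and in the mixed group, and 5 fell and MCM2 rose with miR92b_inhibitor. Of all tested genes 25.3%, 19.1%, 18.2% and 21.1% fell with miR3124_mimic, with miR200b_mimic, with miR92b_inhibitor and in the mixed group. With miR200b_mimic MCM5 passed narrowly (-0.11 ± 0.05, adjusted p = 0.0480), and 7 of the 8 were called under TMM, under DESeq2, with only the 2 groups compared and with no filter, and 6 to 7 without single libraries. Their summed level was 3239 and 3250 CPM in miRcontrol, 2002 and 2013 with miR3124_mimic, 2339 and 2274 with miR200b_mimic, 2532 and 2462 with miR92b_inhibitor, and 2034 and 1988 in the mixed group. MKI67, the most abundant of them, fell by 1.24, 0.74, 0.67 and 1.05 on the log2 scale in the order of the groups above, and TOP2A by 0.58, 0.55, 0.27 and 0.68. The sum, as EZH2, was lower with miR3124_mimic, with miR200b_mimic and in the mixed group than with miR92b_inhibitor, but single genes were ordered otherwise. CCNB1 and CDK1 had mean levels of 313 and 124 CPM with miR92b_inhibitor and of 335 and 144 with miR200b_mimic. The part of proliferation in the EZH2 result was not tested.

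**Figure D4:**
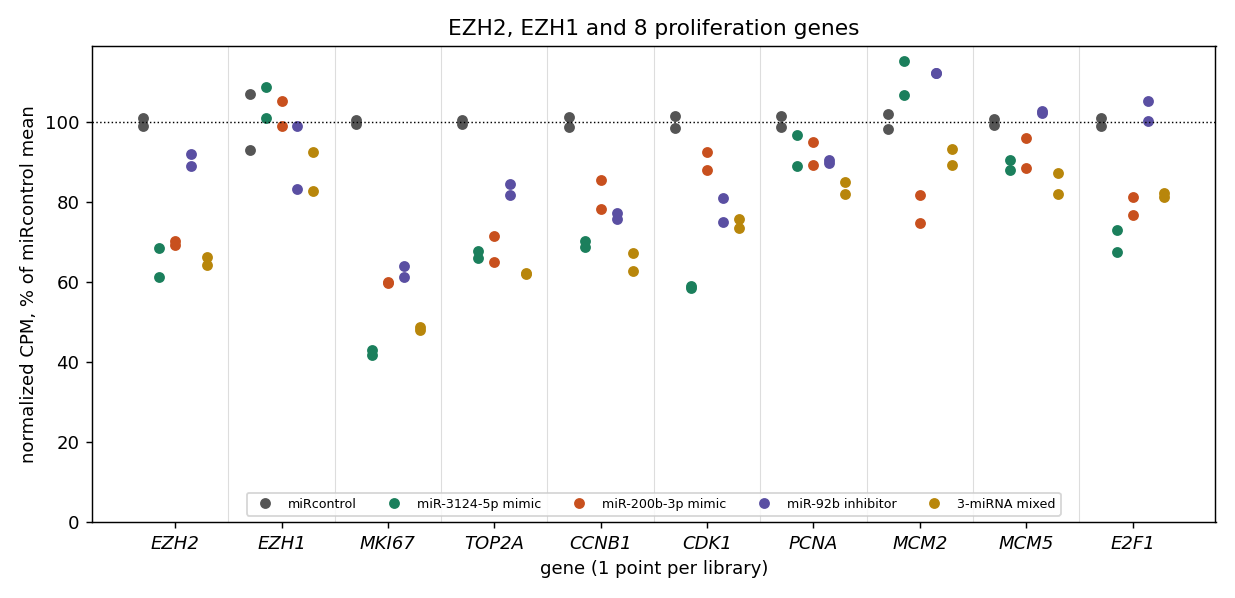
Normalized CPM as a percentage of the miRcontrol mean (y axis, from 0) for EZH2, EZH1 and 8 proliferation genes (x axis), 1 point per library. EZH2 and most proliferation genes lie under the dotted line at 100 in the transfected groups, with MKI67 lowest, while EZH1 is scattered about the line and MCM2 rises above it with miR3124_mimic and miR92b_inhibitor.

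Markers of cell type differed as well. The cells are labelled as normal bronchial epithelium. In miRcontrol the keratin genes KRT8 and KRT18 stood at 814 and 628 CPM, but VIM and FN1, mesenchymal genes, stood at 3800 and 3264, CDH1 and EPCAM had at most 8 counts and TP63 at most 3. The summed epithelial markers, led by KRT8, were 1439 and 1458 CPM in miRcontrol, 1954 and 1968 with miR3124_mimic, 2669 and 2707 with miR200b_mimic, 1457 and 1400 with miR92b_inhibitor, and 2650 and 2644 in the mixed group. The summed mesenchymal markers, led by VIM, were 7334 and 7314, 4507 and 4383, 4635 and 4580, 6970 and 6823, and 4947 and 4968 CPM in the same order. The genes behind these sums differed between the groups. With miR3124_mimic VIM fell (-2.23 ± 0.03), while FN1 (0.05 ± 0.03, adjusted p = 0.216) and CDH2 (-0.06 ± 0.04, adjusted p = 0.216) did not pass the test, and CDH1 and EPCAM were not called. With miR200b_mimic FN1 fell (-1.21 ± 0.03), and VIM fell less (-0.35 ± 0.03). The part of these markers in the EZH2 and JARID2 results was not tested. Fibroblast markers, led by COL1A1, summed to 20.7 and 18.9 CPM in miRcontrol and were higher with miR3124_mimic (53.9 and 53.0), with miR200b_mimic (39.9 in the lower library) and in the mixed group (34.8 and 33.0), while miR92b_inhibitor had 15.7 and 15.4. COL1A1 rose with miR3124_mimic (0.99 ± 0.10), with miR200b_mimic (1.62 ± 0.10) and in the mixed group (0.87 ± 0.10). PDGFRB rose with miR3124_mimic (1.95 ± 0.12) and in the mixed group (0.63 ± 0.13) and fell with miR200b_mimic (-1.33 ± 0.18). DCN had 0 counts throughout. Leukocyte markers, led by CD68, summed to between 17.3 and 40.7, with PTPRC and CD3E at no more than 3 counts. CD68 rose with miR92b_inhibitor (0.575 ± 0.077, adjusted p = 5.09e-08). It fell with miR200b_mimic (-0.516 ± 0.089, adjusted p = 4.50e-06) and in the mixed group (-0.20 ± 0.08, adjusted p = 0.0481). With miR3124_mimic it was not called (adjusted p = 0.0847). The part of CD68 in the results for these groups was not tested. Endothelial markers, led by CDH5, summed to 0.229 and 0.298 CPM in miRcontrol, 4.78 and 3.06 with miR3124_mimic, and 0.719 and 1.24 in the mixed group, with at most 0.602 in the other groups. CDH5 had 1 and 1 counts in miRcontrol, 59 and 44 with miR3124_mimic (adjusted p = 2.53e-10) and 5 and 10 in the mixed group (adjusted p = 0.0176), while PECAM1 and VWF had at most 10 counts in any library. The part of CDH5 in the results for these groups was not tested. The neuroendocrine markers, led by SYP, reached at most 0.683 CPM, with CHGA at 0. PTPRC and CHGA stand on 2 rows each, so their low counts cannot be read as absence.

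The genes most like BMI1 across the 10 libraries, among 10418 tested genes with a mean of at least 5 CPM, were USPL1 (Pearson r of log2 CPM 0.976), IGFBP3 (0.962) and C9orf85 (0.959). IGFBP3, an insulin-like growth factor binding protein, had mean levels of 82.0 CPM in miRcontrol, 46.6 with miR3124_mimic, 74.6 with miR200b_mimic, 117 with miR92b_inhibitor and 60.3 in the mixed group, the same order of groups as BMI1 over a wider range. The genes most like SUZ12 were UBXN2A (0.910), CDC40 (0.841) and SAMD9L (0.839). These values describe 10 libraries in 5 pairs, which share cell line and normalization, and the highest of so many coefficients is high by selection.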

How the data were processed

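The deposited values were whole-number read counts per gene symbol, 58173 rows per library. The authors trimmed the reads, mapped them with TopHat (build GRCh38, per the submitters' processing notes) and counted them on genes. The counting tool, annotation and use of strand are not given in the sources used here. The libraries were made with a directional kit. Counts of the 2687 symbols on more than 1 row were summed.

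Genes passing filterByExpr (14884) were normalized by RLE, and all 10 libraries were fitted together with edgeR 4.0.16 (limma 3.58.1, R 4.3.3), quasi-likelihood test, no covariates, Benjamini-Hochberg adjustment. The members, gene lists and tests were chosen with earlier results of these data known. Beyond the members, ZEB1, ZEB2 and CDH1, the genes named were the 2 largest rises and 2 largest falls among called genes with a mean of at least 1 CPM, in each comparison and in each of 2 sets, other Polycomb genes and HOX with INK4 genes, and for BMI1 and SUZ12 the 3 genes with the highest r (pseudocount 0.5 CPM). Some genes that the rule names are not reported here, though the counts over lists include them. MTF2, ASXL1, CDKN2A, and the single genes named among proliferation genes and markers other than the most abundant, were chosen after their values were seen. Proliferation genes and markers were described as lists. Alternatives were TMM, library totals, DESeq2 1.42.0, edgeR's exact test, only the 2 groups compared, other filters, a replicate block, leaving out each library, added read-through or pseudogene counts, transcript length and 3′UTR choice. Counting intervals and floors cover counting error only.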

Additional observations from a re-analysis of the deposited data

Results flagged for a closer look

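Read-through and pseudogene rows of the members, which the members' counts leave out, were above both miRcontrol libraries in 3 cases. The read-through COMMD3-BMI1 had a mean of 2.54 CPM with miR92b_inhibitor (55 and 34 counts), where both miRcontrol libraries had 0, and it made up 2.99% and 1.70% of the BMI1 and read-through counts together. In 3 other groups it was present in the first library and at 0 in the second. The pseudogene SUZ12P1 had a mean of 8.29 CPM with miR3124_mimic and 8.32 CPM with miR200b_mimic against 7.45 in miRcontrol, and neither difference passed the test (adjusted p = 0.386 and 0.433).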

How the results depend on the processing

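Of 252 recomputed counts of called genes, 239 stayed within 1.5 times the reported count. The members called with miR92b_inhibitor went from 3 to 1 under the DESeq2 Wald test and to 1 with no filter on low counts, and ranged from 0 to 2 when 1 library was left out. In the mixed group, leaving out 1 library gave 2 to 4 members, and DESeq2 gave 7 HOX and INK4 genes in place of 11. Leaving out 1 library gave 7 to 10 HOX and INK4 genes with miR200b_mimic, and 4 to 7 with miR92b_inhibitor, where it gave 10 to 13 other Polycomb genes. For the mixed group against miR3124_mimic, an alternative added after seeing the data, the members called were 2 under DESeq2, 2 with no filter and 1 to 3 without 1 library, against 4. The causes were not tested. Of 503 recomputed fold changes of members, 25 lost a call, 4 gained one, and no called value changed sign. EZH2 and JARID2 with miR200b_mimic kept their calls in all 14 alternatives (-0.53 to -0.50 and 1.06 to 1.23).

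Libraries with the same replicate number did not deviate together, with correlations of -0.0625 to 0.0613 between groups. With the replicate block the members called were 6, 2, 3 and 4, the other Polycomb genes 24, 21, 16 and 25, and the HOX and INK4 genes 8, 12, 7 and 11, in the order miR3124_mimic, miR200b_mimic, miR92b_inhibitor and mixed group.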
